A study of Mus musculus with 24 samples.

Results

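The miR-106b-25 and miR-106a-363 clusters are paralogs of the miR-17-92 cluster, and 6 of their guide strands were measured in mouse muscle stem cells before and after muscle injury. The 6 assays were chosen by name from 584 miRNA assays of the series. They are mmu-miR-106b, mmu-miR-93 and mmu-miR-25 of the first cluster and mmu-miR-106a, mmu-miR-20b and mmu-miR-363 of the second (mmu marks a mouse assay and rno a rat assay, and mmu is mostly left out below). The cells came from male C57BL/6 mice of 8 weeks and form 4 groups: quiescent stem cells (QSC) at 0 h, and activated stem cells (ASC) at 36, 60 and 72 h after injury. RNA was extracted with Trizol and run for 40 cycles on TaqMan Rodent MicroRNA cards A and B (v2.0) in an ABI 7900HT real-time PCR instrument. Each group has 3 replicates on each card, 24 arrays in all, and all 6 miRNAs are on card A, so 12 arrays carry their values. Since the replicates are technical according to the design text, p-values here cover technical spread and not the variation between mice. The labels name neither a cell sort nor pooled animals.

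MicroRNAs are short RNAs that lower the output of messenger RNAs, which they recognise mainly through the seed, the bases near their 5′ end. miRNAs of the miR-17 seed family are known to repress the cell-cycle inhibitor Cdkn1a (p21) and the transcription factor E2f1, and those of the miR-25 and miR-92a seed family are known to repress the pro-apoptotic gene Bcl2l11 (Bim). The miR-106b-25 hairpins lie inside Mcm7, a gene for a subunit of the helicase that unwinds DNA at replication. Muscle stem cells, also called satellite cells, rest out of the cell cycle in uninjured muscle and divide after injury.

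The mature sequences show how the members group, and 3 miRNAs of the miR-17-92 cluster are printed beside them because their values are compared below. Sequences and positions are from RefSeq on mouse build GRCm38.p6, written 5′ to 3′, with the seed (bases 2 to 8) in capitals.
miR-106b: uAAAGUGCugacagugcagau
miR-93: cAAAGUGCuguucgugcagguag
miR-106a: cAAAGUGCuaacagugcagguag
miR-20b: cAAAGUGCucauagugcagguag
miR-17: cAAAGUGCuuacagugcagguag
miR-20a: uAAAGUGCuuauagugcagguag
miR-25: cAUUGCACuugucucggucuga
miR-363: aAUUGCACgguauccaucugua
miR-92a: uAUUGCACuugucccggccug

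Both clusters thus hold both seeds. miR-106b, miR-93, miR-106a and miR-20b share AAAGUGC, and miR-25 and miR-363 share AUUGCAC. With positions counted from 1 at the 5′ end, miR-106a differed from miR-17 at 1 of 23 bases (A10U), from miR-20b at 2 (A10C, C12U), and miR-20b from miR-20a at 2 (C1U, C10U). miR-25 and miR-92a differed at 3 of 21 bases (C1U, U14C, U18C), whereas miR-25 and miR-363 differed at 13 of 22, all outside the seed. Whether an assay also detects a near-identical miRNA was not tested.

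The miR-106b-25 hairpins span chr5:138165321-138165818 on the minus strand, with miR-106b at chr5:138165787-138165807, miR-93 at chr5:138165574-138165596 and miR-25 at chr5:138165332-138165353. The 6 hairpins of the miR-106a-363 cluster span chrX:52741693-52742567, also on the minus strand. In it miR-106a lies at chrX:52742541-52742563, miR-20b at chrX:52742159-52742181 and miR-363 at chrX:52741697-52741718. The other 3 hairpins there are Mir18b, Mir19b-2 and Mir92-2. miR-19b and miR-92a have the same mature sequence from their chromosome 14 and chromosome X copies, so their assays cannot tell the 2 clusters apart.

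The files give a threshold cycle (Ct) per spot, the number of PCR cycles needed to reach a set fluorescence, so that 1 cycle less is about a doubling of RNA. The level used here is the mean Ct of the 4 U6 small nuclear RNA spots of an array minus the Ct of the miRNA, a log2 scale on which a less negative value means more RNA. An assay counted as detected on an array when all its spots there were below Ct 35. Arrays have no read depth, and 181 to 212 of the 375 card A assays were detected per array. Group differences were tested with limma across all assays, and "higher" or "lower" below stands for a difference of 2-fold or more whose adjusted p was under 0.05. Of the muscle stem cell and myogenic markers, 5 of 6 are on card A and all 5 were detected on every array, with log2 summed levels of -8.48 to -8.35 at 0 h, -6.54 to -6.51 at 36 h, -4.73 to -4.65 at 60 h and -5.02 to -4.88 at 72 h. A summed level adds the levels of a list's assays on the linear scale. Assays with the lowest Ct thus weigh most in it, and opposite changes within a list can be hidden. The samples are bulk RNA, in which fewer cells of a type and less RNA per cell cannot be told apart.

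The 4 members with the AAAGUGC seed were higher at 36, 60 and 72 h after injury than in quiescent cells with each of 4 references (U6 and 3 others, given below). Relative to U6 their levels were highest at 60 h and lower at 72 h than at 60 h, a call that depended on the reference. miR-25 changed less than they did, and miR-363 was detected on all 0 h arrays but on only 1 of 9 later arrays. Folds and log2 differences in the next paragraphs are relative to U6, and their size moved with the reference.

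mmu-miR-20b, of the miR-106a-363 cluster, had levels of -11.27, -10.65 and -10.54 at 0 h, -5.80, -5.95 and -6.05 at 36 h, -5.44, -5.37 and -5.55 at 60 h, and -6.94, -6.86 and -6.79 at 72 h. Its 9 later arrays lay far above the 0 h arrays, of which replicate 1 was the lowest, and no groups overlapped. The difference from 0 h was 29.5-fold at 36 h (log2 4.88 ± 0.17, standard error, n = 3 arrays per group; adjusted p = 1.54e-09 in limma), 41.3-fold at 60 h and 15.5-fold at 72 h. With the other references, described below, its log2 difference ran from 3.59 to 5.76 at 36 h, from 5.52 to 7.77 at 60 h and from 4.82 to 7.01 at 72 h.

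mmu-miR-106a, the first hairpin of the same cluster, had levels of -7.59, -7.70 and -7.78 at 0 h, -3.46, -3.39 and -3.35 at 36 h, -2.58, -2.63 and -2.63 at 60 h, and -3.92, -3.97 and -4.15 at 72 h. Replicates lay close together at every time, and the order was 0 h, 72 h, 36 h and 60 h with no overlap. It was 19.5-fold above 0 h at 36 h (log2 4.28 ± 0.07), 33.7-fold at 60 h (5.08 ± 0.07) and 12.8-fold at 72 h (3.67 ± 0.07).

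mmu-miR-93 had levels of -11.06, -11.07 and -11.08 at 0 h, -7.11, -7.10 and -7.08 at 36 h, -6.49, -6.60 and -6.56 at 60 h, and -7.80, -7.74 and -7.98 at 72 h. The 4 groups kept the same order as for miR-106a and did not overlap. The folds over 0 h were 15.7 at 36 h (log2 3.97 ± 0.06), 22.9 at 60 h (4.52 ± 0.06) and 9.37 at 72 h (3.23 ± 0.06).

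mmu-miR-106b, the first hairpin of the Mcm7 cluster, had levels of -10.80, -11.06 and -10.89 at 0 h, -8.41, -8.36 and -8.39 at 36 h, -7.92, -8.07 and -8.00 at 60 h, and -9.31, -9.41 and -9.56 at 72 h. All later arrays were above all 0 h arrays, by less than for miR-93. It was 5.77-fold above 0 h at 36 h (log2 2.53 ± 0.08), 7.57-fold at 60 h (2.92 ± 0.08) and 2.81-fold at 72 h (1.49 ± 0.08).

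mmu-miR-25, the third miRNA of that cluster, had levels of -10.06, -9.72 and -10.03 at 0 h, -9.15, -9.09 and -9.04 at 36 h, -8.61, -8.57 and -8.61 at 60 h, and -10.36, -10.33 and -10.28 at 72 h. The 36 h and 60 h arrays were above those of 0 h and the 72 h arrays below them. It was higher at 60 h, by 2.53-fold (log2 1.34 ± 0.09, adjusted p = 1.34e-07 in limma). The log2 differences at 36 h (0.85 ± 0.09) and 72 h (-0.39 ± 0.09) were short of the 2-fold minimum, and the direction at 72 h depended on the normalizer, as did that at 36 h (given below).

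**Figure D1:**
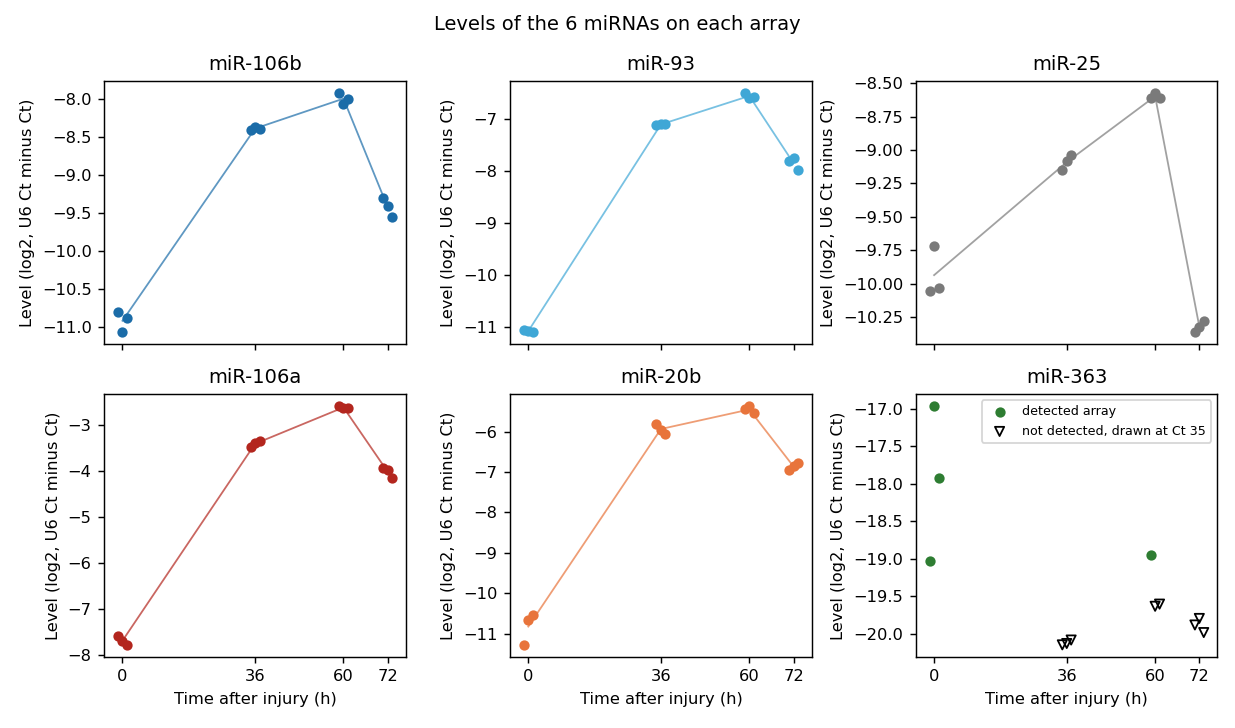
Level of each of the 6 miRNAs (U6 Ct minus Ct, log2, vertical axis, scaled per panel) on the 12 card A arrays, by hours after injury; points are arrays, lines join group means, and open triangles are arrays without a Ct below 35, drawn at Ct 35. Relative to U6 the first 5 miRNAs were highest at 60 h, and miR-363 has 3 detected arrays at 0 h and 1 at 60 h.

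Counted together, 4 of the 5 members that could be tested were higher at 36 h than at 0 h, against 44.1% of all tested assays called higher (56.2% called in either direction). At 60 h 5 of 5 were higher, against 28% (64.4% in either direction). At 72 h 4 of 5 were higher, against 20.9% (67.2% in either direction). The median log2 difference of the 5 members was 3.97, 4.52 and 3.23 at the 3 times, while that of all tested card A assays was 0.91, -0.49 and -1.37. Levels of 3 against 3 arrays that do not overlap were common over all assays, at 82.9% at 36 h, 87.4% at 60 h and 85.4% at 72 h against 0 h, 88.3% for 60 h against 36 h, 81.2% for 72 h against 60 h and 91% for 72 h against 36 h, so lack of overlap alone does not set the members apart. Among tested card A assays ranked from the largest increase, miR-20b was the 9th of 177 at 36 h, 12th of 168 at 60 h and 9th of 166 at 72 h, and miR-25 the 94th, 43rd and 63rd.

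**Figure D2:**
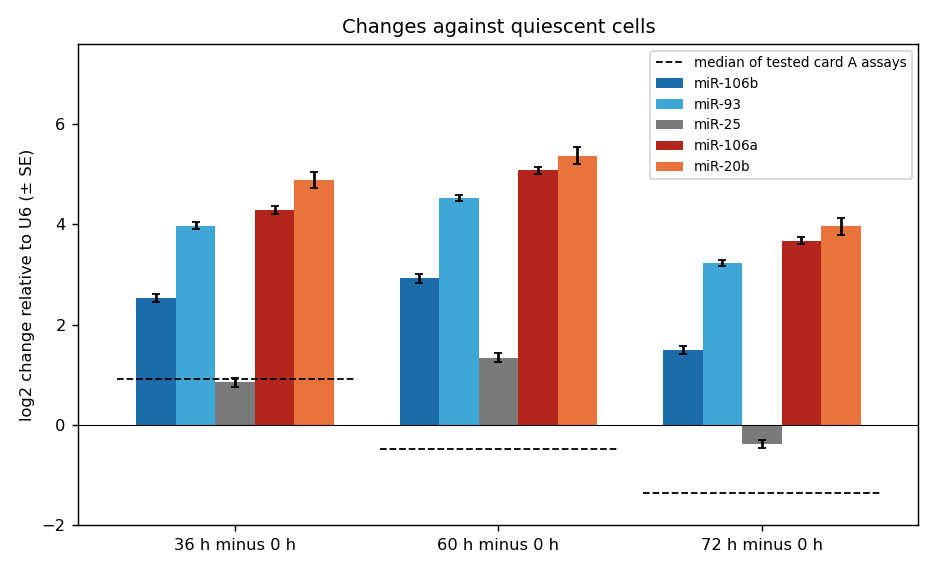
Log2 difference from 0 h, relative to U6, of the 5 tested members at 36, 60 and 72 h (bars, with the standard error of the limma fit), with the median of all tested card A assays as a dashed line. The 4 members with the AAAGUGC seed stand well above the median at each time, and miR-25 is at the median at 36 h.

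Between the later times, the 5 members moved in the same direction as each other. From 36 h to 60 h the log2 difference ran from 0.39 for miR-106b to 0.79 for miR-106a, all short of 2-fold, so 0 of 5 were called, against 54.8% of all tested assays, 49.5% being called lower. Although below the 2-fold minimum, all 5 of these differences had an adjusted p below 0.05 in limma, from 3.69e-06 for miR-106a to 0.0233 for miR-20b. The share of all tested assays that passed the adjusted p alone is not given here. Levels of 88.3% of assays did not overlap between these 2 times, but that is another measure, so the count by adjusted p is not read further. The median log2 difference of all tested card A assays was -1.27 relative to U6, below that of each member. Ranked from the largest increase, miR-106a was the 13th of 184 card A assays and miR-106b the 23rd, with the other members between them. At 72 h, 5 of 5 were lower than at 60 h (log2 -1.29 for miR-93 to -1.72 for miR-25), against 35.8% of all tested assays called lower (36.6% in either direction). Their median was -1.41 and that of card A -0.87. Both counts depended on the reference: with snoRNA202 and with the global mean 5 of 5 were called higher at 60 h than at 36 h, and the 5 called lower at 72 h than at 60 h became 1 with snoRNA202, 1 with snoRNA135 and 0 with the global mean. The 72 h and 36 h groups were compared to order the 4 times, a comparison added after the data were seen. miR-106b (-1.04 ± 0.08) and miR-25 (-1.23 ± 0.09) were lower at 72 h, 2 of 5 against 69.3% of all tested assays called lower (73.3% in either direction), while miR-93, miR-106a and miR-20b were at -0.74, -0.61 and -0.93. The median of all tested card A assays was -2.30, so all 5 members fell less than the median assay.

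mmu-miR-363 was near the detection limit and, relative to U6, was lower after injury in the values below. Its Ct was 34.37, 32.37 and 33.30 at 0 h. At 36 h it was 35.58 and 35.48 with none on the third array, at 60 h 34.36, 36.19 and 38.77, and at 72 h none, 36.88 and 37.32. The 0 h arrays alone were detected in 3 of 3 replicates, though replicate 1 there had nearly the same Ct as the detected 60 h array. miR-363 was therefore not tested in the limma comparisons. With undetected arrays set at Ct 35 it was at least 4.42-fold lower at 36 h and at least 3.76-fold lower at 72 h than at 0 h, and its 0 h mean was 1.97-fold above the highest 60 h value. These bounds are relative to U6. With snoRNA202 as the reference and undetected arrays at Ct 35, the log2 difference from 0 h was -1.27 at 36 h but above 0 at the last 2 times (0.98 at 60 h, 1.14 at 72 h), so that direction depended on the reference. When every Ct up to 40 was kept, the U6-based log2 difference of miR-363 from 0 h was -2.69 (adjusted p = 0.0723), -3.08 (0.0268) and -4.01 (0.0143) at 36, 60 and 72 h in limma. Arrays with no Ct were left out of that fit, so 2 arrays stood for 36 h and 2 for 72 h. The authors' deposited table gives average folds against day 0 of 0.132, 0.372 and 0.0351 for miR-363 at its days 1.5, 2.5 and 3.5. For the last time the headers of that table say day 3.5 and the labels say 72 h. In the authors' deposited table miR-20b has folds of 30.9, 42.3 and 15.8, and miR-25 has 1.80, 2.53 and 0.774.

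Because U6 might itself vary, members were also compared with each other on the same array, where the normalizer cancels. Of 9 pairs planned, the 3 with miR-363 could not be tested. At 36 h against 0 h 6 of 6 pairs differed in their change (limma, adjusted over card A). The share of all tested card A assays that differed in this way was also high, at 79% relative to miR-25, 96.6% relative to miR-93, 95.5% relative to miR-20b and 89.2% relative to miR-106b. At 60 h 5 of 6 pairs differed, against 91.6%, 98.2%, 94.6% and 98.2%, and at 72 h 5 of 6, against 86.1%, 97.6%, 95.2% and 95.2%. A difference in change between a pair of assays was thus the rule on these arrays, and the sizes are given next.

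Within the miR-106b-25 cluster, whose 3 hairpins lie within 498 bases, the members separated. miR-93 rose more than miR-25 by 3.13 ± 0.12 on the log2 scale at 36 h, 3.18 at 60 h and 3.61 at 72 h, or 8.74-, 9.07- and 12.2-fold. miR-106b rose more than miR-25 by 1.68 ± 0.15, 1.58 and 1.88. miR-106b, with the same seed as miR-93, rose less than it by a log2 difference of -1.45 ± 0.07, -1.60 and -1.74. The 3 members of 1 cluster thus changed by 3 different amounts at every time after injury, the order being miR-93, miR-106b and miR-25.

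Within the miR-106a-363 cluster, miR-106a and miR-20b were closer to each other. The log2 difference of their changes was -0.60 ± 0.23 at 36 h (adjusted p = 0.0249), -0.29 at 60 h (95% interval -0.80 to 0.21) and -0.28 at 72 h (-0.79 to 0.22). The call at 36 h was lost without QSC replicate 1 (-0.32, adjusted p = 0.0634), without ASC 36 h replicate 1 (-0.50, 0.0887) and without ASC 36 h replicate 2 (-0.61, 0.0515). Between the clusters, miR-106a rose more than miR-106b by 1.76 ± 0.08, 2.16 and 2.18 at the 3 times, and miR-20b more than miR-93 by 0.91 ± 0.19, 0.85 and 0.73. These are differences between assays. Whether those of miR-106a and miR-20b also detect the near-identical miR-17 and miR-20a was not tested, and miR-18b of the same cluster was detected on no array. Between later times 1 of 6 pairs differed from 36 h to 60 h, namely miR-106a above miR-106b by 0.40, against 86.9%, 89.1%, 84.2% and 84.7% of assays relative to miR-25, miR-93, miR-20b and miR-106b. From 60 h to 72 h 1 of 6 differed, namely miR-93 above miR-25 by 0.43, against 79.1%, 68.4%, 46.3% and 64.4% relative to the same 4.

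Of the miR-17-92 cluster, miR-17, miR-20a and miR-92a were set beside miR-106a, miR-20b and miR-25, in pairs that were chosen after their values were seen. The change of miR-106a minus that of miR-17 was 0.01 at 36 h (95% interval -0.12 to 0.14), 0.05 at 60 h (-0.07 to 0.18) and -0.00 at 72 h (-0.13 to 0.13), when 96%, 97% and 96.4% of card A assays differed from miR-17. Over the 12 arrays the Ct values of this pair were never more than 0.130 apart. For miR-20b minus miR-20a the differences were 0.10 (-0.29 to 0.49), -0.08 (-0.47 to 0.31) and 0.07 (-0.32 to 0.45), against 97.2%, 95.8% and 97% of assays that differed from miR-20a. For miR-25 minus miR-92a they were 0.09 (-0.14 to 0.31), 0.19 (-0.03 to 0.41) and -0.09 (-0.31 to 0.14), against 83%, 91% and 86.1%. From 60 h to 72 h miR-25 fell more than miR-92a (log2 -0.28, adjusted p = 0.0316), against 70.6% of assays. These intervals bound the difference and do not show that the assays measure separate molecules.

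Of the 6 guide strands of the miR-17-92 cluster, 4 of 5 tested were higher at 36 h, 5 of 5 at 60 h and 4 of 5 at 72 h, against 44.1%, 28% and 20.9% of all tested assays. miR-19a rose 29.2-fold at 36 h, 59.6-fold at 60 h and 17.3-fold at 72 h. miR-19b, with the same seed as miR-19a (GUGCAAA), rose 15.3-, 22.9- and 6.36-fold. These seeds and that of miR-18a (AAGGUGC) are not those of the 6 members, and no test of grouping by seed was run. miR-92a had log2 differences of 0.76, 1.15 and -0.30, and was called at 60 h alone. miR-18a was detected on 1 of 3 arrays at 0 h and on all later arrays, 383-, 1102- and 368-fold above its highest 0 h spot. Grouped by seed, all 6 mouse assays with AAAGUGC on the cards were higher at 36, 60 and 72 h. Their log2 differences were 2.53 to 4.88, 2.92 to 5.45 and 1.49 to 3.96, where 44.1%, 28% and 20.9% of all tested assays were called higher. Of 5 mouse assays with AUUGCAC, 2 (miR-25 and miR-92a) could be tested, and they lay at 0.76 to 0.85, 1.15 to 1.34 and -0.39 to -0.30. Rat assays were left out of these groups, since their sequences were not compared. miR-32 was detected on 1 array at 36 h and 1 at 72 h, and miR-367 and the miR-106a-363 member miR-18b on none.

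The closest profiles over the 3 differences from 0 h were found among the 151 other card A assays detected on all 12 arrays, by the root mean square of the log2 differences, in which the normalizer cancels. For miR-106a they were miR-17 (0.0314), miR-20a (0.381) and miR-20b (0.418), and for miR-20b miR-20a (0.0836), miR-221 (0.254) and miR-19a (0.320). For miR-93 they were miR-19b (0.324), miR-17 (0.426) and miR-106a (0.449). For miR-25 they were miR-92a (0.130), miR-99b (0.239) and miR-362-3p (0.324). miR-106b stood apart from its paralogs, with miR-301b (0.348), miR-301a (0.351) and miR-34b-3p (0.526) closest. The median over all 151 assays ran from 2.03 for miR-25 to 5.31 for miR-20b.

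Other products of the same hairpins were measured by further assays, all on card B except rno-miR-20b-3p, and 2 of the other arms of the hairpins (marked with an asterisk) were detected. The levels of different assays cannot be set against each other. They are printed because they come from the same hairpins as miR-93 and miR-106b and carry other seeds.
miR-93*: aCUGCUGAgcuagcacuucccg
miR-106b*: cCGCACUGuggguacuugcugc

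miR-93* had levels of -9.11, -8.86 and -8.79 at 0 h, -8.77, -8.76 and -8.68 at 36 h, -8.52, -8.35 and -8.45 at 60 h, and -9.33, -9.36 and -9.32 at 72 h. Its log2 differences from 0 h were 0.18 ± 0.12, 0.48 ± 0.12 and -0.42 ± 0.12, with 0 calls, next to 3.97, 4.52 and 3.23 for miR-93. The difference between the strands was not tested, since they are on separate cards. miR-106b* was detected on 1 of 3 arrays at 0 h and on all 9 later arrays, and at 0 h replicate 2 had 1 of its 2 spots below the limit, at Ct 33.26. Its later means were 5.99-, 12.9- and 2.39-fold above its highest 0 h spot at 36, 60 and 72 h. miR-20b*, rno-miR-25*, rno-miR-363* and rno-miR-20b-3p were detected on no array. A rat assay, rno-miR-20b-5p, was also higher than at 0 h, with log2 differences of 2.55 ± 0.25, 1.78 ± 0.25 and 1.03 ± 0.25 beside 4.88, 5.37 and 3.96 for the mouse assay of miR-20b. This rat assay had late Ct values, 30.6 to 32.6 at 0 h and 27.7 to 30.7 after injury, with spots at 32.63 and 30.63 on 0 h replicate 3. From 36 h to 60 h its log2 difference was -0.77, where the mouse assay had 0.48. These gaps between assays of different cards were not tested.

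**Figure D3:**
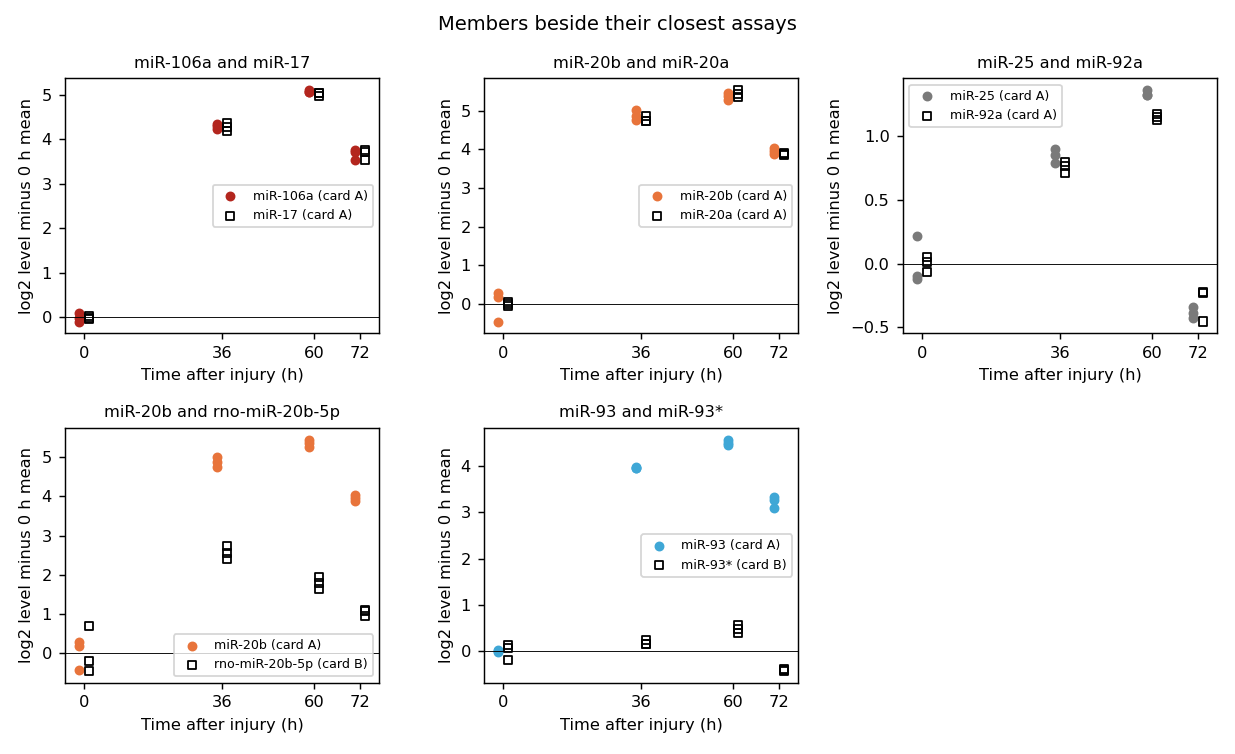
Log2 level minus the 0 h mean of members (filled circles) and of a second assay (open squares) on each array, by hours after injury. miR-106a and miR-17, miR-20b and miR-20a, and miR-25 and miR-92a overlie each other, while rno-miR-20b-5p and miR-93*, on card B, stand below miR-20b and miR-93 after injury.

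Calls against 0 h were steadier across references than calls between later times, while the sizes moved with the reference in both. Against 0 h the 4 members with AAAGUGC were called higher at all 3 times with U6, with snoRNA135, with snoRNA202 (both small nucleolar RNAs on the cards) and with the global mean, taken over the assays that all 12 arrays detected. The smallest of these differences was 1.24 for miR-106b at 36 h with the global mean, where the card A median was -0.38. The share of all tested assays called higher also moved: at 36, 60 and 72 h it was 66.2%, 71.6% and 68% with snoRNA202, 51.1%, 32.8% and 26.6% with snoRNA135, and 21.7%, 29.6% and 29.5% with the global mean. For miR-20b the log2 difference at 60 h was 7.77 with snoRNA202, 5.70 with snoRNA135 and 5.52 with the global mean, and for miR-106a it was 7.48, 5.41 and 5.23. For miR-93 it was 6.92, 4.86 and 4.68, and for miR-106b 5.33, 3.26 and 3.08. At 72 h miR-106b was at 4.54, 2.36 and 2.53 with the same 3, against 1.49 with U6. For miR-25 the 36 h difference was called higher with snoRNA135 (1.06) and snoRNA202 (1.72) and was -0.44 with the global mean. At 72 h it was 0.48, 2.66 and 0.65 with those 3 references, called with snoRNA202 alone, where the card A median was 1.68.

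From 36 h to 60 h all 5 members were called higher with snoRNA202 (1.92 to 2.32), against 33.7% of all tested assays, and with the global mean (1.84 to 2.24), against 26.9%. The drop at 72 h against 60 h kept its sign with all 4 references. It ran from -1.08 to -0.65 with snoRNA202, from -1.20 to -0.76 with snoRNA135 and from -0.85 to -0.42 with the global mean, where it was called for miR-25 alone with snoRNA202 and snoRNA135 and for no member with the global mean. Of all tested assays, 14% were called lower there with snoRNA202, 19.2% with snoRNA135 and 6.42% with the global mean. The 72 h against 36 h difference was below 0 with U6 and above 0 with snoRNA202 and the global mean for all 5, for example -1.04 with U6, 1.14 with snoRNA202 and 1.29 with the global mean for miR-106b. With snoRNA135 it ran from -0.58 for miR-25 to 0.04 for miR-106a, and no member was called. The mean Ct of snoRNA202 on card A was 14.6, 15.0, 17.1 and 17.4 at 0, 36, 60 and 72 h. That of snoRNA135 was 19.7, 19.5, 20.1 and 20.4, and that of U6 15.4, 14.9, 15.4 and 15.1. Which reference was the steadiest was not tested.

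**Figure D4:**
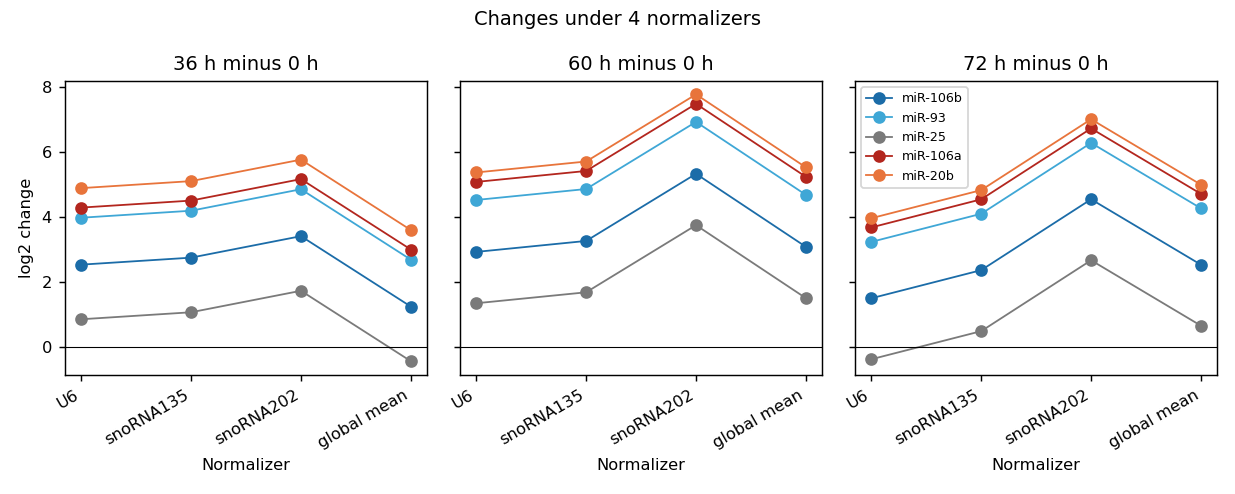
Log2 difference from 0 h of the 5 tested members with each of 4 references (horizontal axis), at 36, 60 and 72 h; the lines join the points of a miRNA and have no scale between references. The order miR-20b, miR-106a, miR-93, miR-106b, miR-25 is the same with every reference because the reference cancels between assays, and miR-25 falls below 0 with the global mean at 36 h and with U6 at 72 h.

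Markers of other cell types moved over the same times. The log2 summed level of the 6 leukocyte assays was -5.38 to -5.34 at 0 h, -3.72 to -3.65 at 36 h, -6.57 to -6.44 at 60 h and -7.42 to -7.28 at 72 h, with miR-142-5p undetected at 0 h. The 2 endothelial assays stood at -4.52 to -4.44, -2.29 to -2.28, -6.28 to -6.19 and -6.42 to -6.40, and the 4 mesenchymal and smooth muscle assays at -3.23 to -3.11, -2.76 to -2.70, -6.16 to -6.13 and -6.82 to -6.75. Relative to U6, the summed levels of these 3 lists lay above 0 h at 36 h and below it at 60 and 72 h. Of the 3 erythroid assays, 2 are on card A, and miR-486 was undetected at every time. The other, miR-451, was undetected at 0 h and detected in 3 of 3 replicates at 36 and 60 h, but not in all at 72 h. Its levels were -14.07 to -12.99 at 36 h and -18.79 to -16.07 at 60 h. Of the 6 epithelial assays 1 was detected in 3 of 3 replicates at 0, 60 and 72 h and 3 at 36 h. The part of these cell types in the members' changes was not tested.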

How the data were processed

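The measurements are real-time PCR cards, 12 of type A and 12 of type B. Per the file headers, the deposited single-array files hold 1 Ct per spot. The program and threshold behind it were not given in the sources used here, and neither was any filter. The authors also deposited fold changes, a linear ratio against day 0 averaged over replicates, per the file headers. From that table only the 3 fold columns of card A were used, and 84 other per-sample columns were not used. The card type was read from the assay names in each file, since the labels do not give it.

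Levels (mean U6 Ct minus Ct, log2) were computed per array, and spots of 1 assay were averaged. Assays with at least 2 detected replicates (all spots below Ct 35) in both groups entered limma (version 3.58.1, under R 4.3.3; lmFit, contrasts.fit and eBayes), with the 12 arrays of a card in 1 fit and Benjamini-Hochberg adjustment over both cards. Pair differences used the partner's Ct in place of U6, adjusted over card A. The method was tested on simulated data. Named are the 6 members, the miR-17-92 guide strands, assays with the same seed, rat assays and other arms of the members' hairpins, and for each member the 3 closest profiles. The members and lists were chosen with earlier results of these data known. Alternatives were 3 other references, other detection limits, undetected values at Ct 35, the replicate number as a block, fits of 2 groups alone and leaving out each array. Over 36 pairs of same-numbered arrays the correlation of deviations from the group means was above 0.1 for 9 and ran from -0.43 to 0.49, so the numbers were not taken to pair samples.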

Additional observations from a re-analysis of the deposited data

How the results depend on the processing

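The reference RNA was the choice that mattered most. The members called at 60 h against 36 h were 5 under snoRNA202 and 5 under the global mean (U6 gave 0), where the assays called were 148 and 139 (153 with U6), and at 72 h against 60 h 1 under snoRNA202, 1 under snoRNA135 and 0 under the global mean (U6 gave 5), where the assays called were 46, 59 and 42 (97 with U6). miR-25 changed direction at 72 h against 0 h with snoRNA202 (2.66), snoRNA135 (0.48) and the global mean (0.65), and at 36 h with the global mean (-0.44). With undetected values at Ct 35, the upper bounds for miR-363 against 0 h were 0.98 (60 h) and 1.14 (72 h) with snoRNA202, against -1.42 and -1.91 with U6. The cause of these shifts was not tested. With every Ct up to 40 kept, 8 of 9 pairs differed at 60 h and 8 at 72 h, since the 3 pairs with miR-363 could then be tested. With 2 groups alone in the fit, 2 pairs differed at 60 h against 36 h, and the 36 h call of miR-106a against miR-20b was lost (-0.60, adjusted p = 0.0592). Leaving out each array in turn, the pairs that differed ranged from 1 to 2 at 60 h against 36 h and from 1 to 2 at 72 h against 60 h, each with 2 without QSC replicate 2 alone. Over the same fits miR-20b minus miR-93 at 60 h against 36 h ranged from -0.13 to 0.0098, and miR-106a minus miR-20b at 72 h against 60 h from -0.076 to 0.11. Members called against 0 h stayed at 4, 5 and 4 in every such fit. The replicate block left the members called at 4, 5, 4, 0 and 5 and changed no call of a member or a pair. Technical replicates leave the variation between mice unmeasured, and Ct values near 35 limit the precision for miR-363.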
